A study of Mus musculus with 16 samples.

Results

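Imprinted genes, which are expressed mainly from the chromosome inherited from 1 parent, were followed here as a set of 38 named genes in the single-cell and bulk transcriptomes of a tendon study in mouse. The members were listed by symbol, and each symbol was matched to its Ensembl identifier. All 38 were found among the 29632 entries of the single-cell table and among the 47729 entries of the bulk table. The single-cell data are CEL-Seq2 counts of unique molecular identifiers (UMIs) in cells sorted 1 per well into 384-well plates, with 3 plates for each of 4 time points. T0 cells were mesodermal cells made from ScxGFP induced pluripotent stem cells (iPSCs) without TGF-β2 treatment, and T3, T6 and T9 cells were T0 cells kept for 3, 6 and 9 days with TGF-β2 at 10 ng/ml. All cells descend from 1 iPSC clone that carries the ScxGFP transgene, which marks cells that express *Scx*, the gene of the tendon transcription factor scleraxis. The bulk data are read counts of Achilles tendon tissue from 2-week-old *Scx* knockout mice (Scx_KO, 2 samples) and wild-type littermates (Scx_Wt, 2 samples).

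Imprinted genes lie in clusters. In each cluster a control region that is methylated on 1 parental copy decides which copy of the neighbouring genes is read, and long noncoding RNAs made from the other copy often silence genes beside them. Many members act on growth before birth: paternally expressed genes such as *Igf2* and *Dlk1* mostly promote it, and maternally expressed genes such as *Igf2r*, *Grb10*, *Cdkn1c* and *Phlda2* mostly restrain it, and several are high in embryonic mesenchyme and fall after birth. The counts do not separate the parental copies, so every value below is a sum over both and does not show whether a gene was imprinted in these cells.

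The plates held 1923117 to 4660623 UMIs over 381 to 384 cells, with a median of 4580.5 to 11496 UMIs per cell, and the bulk samples held 11188270 to 12398560 counts. In the cells, levels are given as UMIs of the gene per 1000000 UMIs of the plate (CPM), and intervals of shares cover counting error only. Because CEL-Seq2 counts 3′ ends, levels of different genes are compared only in bulk, as RPKM, which divides the counts by exon length and library size. Tests were edgeR's quasi-likelihood test on plate sums scaled by TMM, with p-values adjusted over all genes tested by Benjamini and Hochberg, and a gene was called at an adjusted p under 0.05. Fold changes are log2 values ± SE. Whether the counting used strand is not given in the sources used here. It is therefore not known how reads in exons shared with a gene on the other strand were assigned. Members with such exons include *Mest* and *Copg2*, *Zrsr1*, which shares some with *Commd1*, and *Rtl1*, which lies opposite a microRNA transcript. *Igf2r* and *Airn* overlap in span on opposite strands but share no annotated exon bases. The study's mapping summary lists reads of ambiguous assignment apart from assigned reads. Nothing in the sources used here states that the 3 plates of a time point were separate cultures, so the p-values measure the spread between plates. Between T0 and T9 the TMM scaling put the median log2 change of all genes 0.49 above that from plate totals. The shift was 0.21 between T0 and T3 and 0.25 between T6 and T9, so a CPM value and a fold change below can differ by that much. The plates also fell into 2 kinds by the share of their reads that met no annotated feature in the study's mapping summary: all 3 T0 plates, T3 plate 2, T6 plates 1 and 3 and T9 plate 3 had more such reads, and the other 5 had fewer. No T0 plate had fewer, so a fit with the kind of plate as a covariate takes the size of that covariate from the treated plates alone. Mitochondrial transcripts took 92713 to 150440 CPM in the 7 plates with more such reads and 215790 to 279180 CPM in the 5 with fewer. The pluripotent markers summed to 371 to 780 CPM at T0, 105 to 156 CPM at T3, 139.9, 8.27 and 12.4 CPM on the T6 plates and 159.9, 296 and 0.331 CPM on those of T9. The tenocyte markers summed to 482 to 564 CPM at T0, with *Tnmd* and *Kera* at 0, and 13276 to 39958 CPM at T9, and the dividing markers to 2386 to 2541 CPM at T0 and 611 to 1007 CPM at T9.

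Several of the loci also encode microRNAs, whose mature forms carry no poly(A) tail and were not measured here. The mature sequences are shown to place them beside their hosts, of which *H19* and *Mest* were called over time, *Mirg* in tendon, and *Meg3* and *Rian* in no comparison, with the seed, bases 2 to 8, in capitals. The hairpin of *H19* gives miR-675 (5p at chr7:142577112-142577133 and 3p at chr7:142577078-142577099, both on the minus strand), and that of *Mest* gives miR-335 (5p at chr6:30741314-30741336, plus strand). Between the start of *Meg3* and the end of *Mirg* on the plus strand of chromosome 12 (chr12:109541001-109749460) RefSeq places 57 hairpins, 54 of them on the plus strand, with 106 mature forms and 97 distinct seeds. Of these hairpins 1 lies within *Meg3*, 3 within *Rian*, 14 within *Mirg* and 6 opposite *Rtl1*. The forms below are miR-770-5p from *Meg3* (chr12:109563710-109563731), miR-370-3p from *Rian* (chr12:109618305-109618326), miR-453 and miR-496a-5p from *Mirg* (chr12:109735669-109735692 and chr12:109739132-109739152) and miR-127-3p, which lies opposite *Rtl1* (chr12:109592888-109592909, plus strand). The 8 sequences hold 7 distinct seeds, because miR-453 and miR-496a-5p, both from *Mirg*, share 1.
mmu-miR-675-5p: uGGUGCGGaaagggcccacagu
mmu-miR-675-3p: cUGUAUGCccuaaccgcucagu
mmu-miR-335-5p: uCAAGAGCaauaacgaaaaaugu
mmu-miR-770-5p: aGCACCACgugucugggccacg
mmu-miR-370-3p: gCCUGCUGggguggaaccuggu
mmu-miR-453: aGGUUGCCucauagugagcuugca
mmu-miR-496a-5p: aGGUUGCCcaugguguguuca
mmu-miR-127-3p: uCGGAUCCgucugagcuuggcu
All come from RefSeq on GRCm38.p6.

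Promoter sequences are shown for 3 members whose values differ most in kind below: *Dlk1*, which rose, *Nnat*, which fell, and *Meg3*, whose level differed between kinds of plate. Each run holds 300 bases, 250 before the RefSeq start and 50 after it, with every CG, the pair of bases that carries imprint methylation, in capitals. The windows are chr12:109452573-109452872 for *Dlk1*, chr12:109540746-109541045 for *Meg3* and chr2:157559828-157560127 for *Nnat*, all on the plus strand of GRCm38.p6.
Dlk1 promoter: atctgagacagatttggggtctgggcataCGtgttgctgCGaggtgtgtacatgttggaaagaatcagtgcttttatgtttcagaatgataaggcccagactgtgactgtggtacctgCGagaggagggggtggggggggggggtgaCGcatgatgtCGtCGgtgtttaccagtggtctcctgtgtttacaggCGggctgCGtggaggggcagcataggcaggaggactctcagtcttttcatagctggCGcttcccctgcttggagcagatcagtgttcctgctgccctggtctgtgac
Meg3 promoter: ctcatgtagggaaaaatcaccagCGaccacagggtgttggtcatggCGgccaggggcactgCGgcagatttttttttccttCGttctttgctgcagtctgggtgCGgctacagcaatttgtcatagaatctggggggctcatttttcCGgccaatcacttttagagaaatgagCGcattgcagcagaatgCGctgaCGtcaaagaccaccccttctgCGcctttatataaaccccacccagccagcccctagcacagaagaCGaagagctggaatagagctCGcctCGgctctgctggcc
Nnat promoter: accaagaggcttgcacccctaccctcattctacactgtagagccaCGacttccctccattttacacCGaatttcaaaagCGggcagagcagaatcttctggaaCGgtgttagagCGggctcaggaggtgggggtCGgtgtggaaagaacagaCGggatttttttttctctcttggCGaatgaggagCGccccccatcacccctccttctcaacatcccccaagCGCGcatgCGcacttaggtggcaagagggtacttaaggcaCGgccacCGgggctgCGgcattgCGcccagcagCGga
The *Dlk1* window holds 9 CG pairs, that of *Meg3* 13 and that of *Nnat* 17, and 45.8%, 37.9% and 31.4% of the 32851 RefSeq promoter windows of this length hold as many. The E-box CANNTG, the motif that basic helix-loop-helix factors such as scleraxis bind, was searched on these windows. It reads the same on both strands, and the search found it in none of the 3 windows shown, in 33 of the 48 windows of the 32 members that had one, and in 72.3% of all windows. A second RefSeq window of *Meg3*, chr12:109545148-109545447, is not shown and holds 1 CG pair and 1 E-box.

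Over the time course 35 of the 38 members could be tested, and 21 were called in at least 1 of 4 comparisons. No matching share of all genes was counted, so the 21 are not read as a result about the members. Shares of all genes are given below for each comparison. From T0 to T3, 6 members rose, where 17.1% of all 13375 genes tested were called higher, and 9 fell, where 16.1% were called lower. From T3 to T6, 2 rose (2.61% of all genes) and 1 fell (1.62%), and from T6 to T9, 1 rose (0.935%) and none fell (0.688%). Across the whole interval from T0 to T9, 9 rose (23.6%) and 10 fell (21.6%), each out of 35 tested and at shares of the same order as those of all genes. Their median log2 change was 0.19 from T0 to T3 beside 0.01 over all genes, 0.32 beside 0.03 from T3 to T6, −0.15 beside −0.01 from T6 to T9 and −0.11 beside −0.02 from T0 to T9. On plate totals in place of TMM the split was 4 higher and 10 lower from T0 to T3 and 5 higher and 13 lower from T0 to T9, and no called direction turned. The comparisons share plates and are not independent of each other. The remaining 14 members tested (*Igf2r*, *Airn*, *Meg3*, *Rian*, *Mirg*, *Copg2*, *Grb10*, *Cdkn1c*, *Kcnq1ot1*, *Magel2*, *Mkrn3*, *Snrpn*, *Ube3a* and *Gnas*) were not called over time, and *Slc22a18*, *Rasgrf1* and *Nap1l5* were too low to test.

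**Figure D1:**
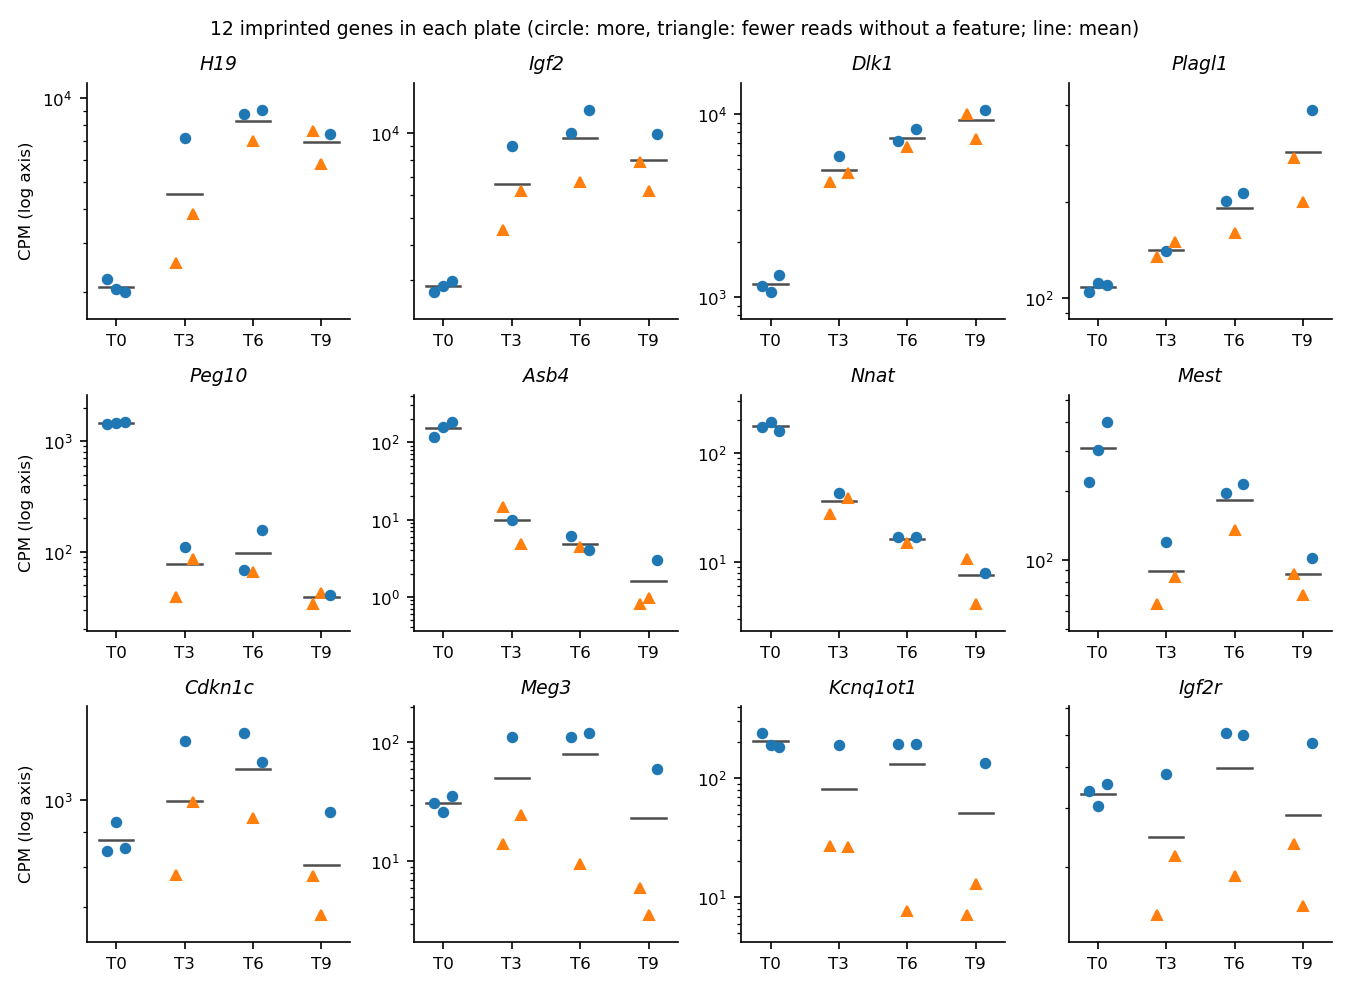
Level in CPM (log axis) of 12 imprinted genes in each of the 12 plates by time point, with circles for plates with more reads outside annotated features, triangles for plates with fewer, and a line through the means. *H19*, *Igf2* and *Dlk1* rise, and *Peg10*, *Asb4* and *Nnat* fall. From T3 on the circles of *Igf2*, *Igf2r*, *Meg3* and *Kcnq1ot1* lie above their triangles.

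At the *H19*-*Igf2* locus on chromosome 7 both genes rose. *Igf2* (chr7:142650766-142666816) encodes insulin-like growth factor 2, the main fetal growth factor, and *H19* (chr7:142575529-142578143) is the maternally expressed noncoding RNA that shares its enhancers and carries the miR-675 hairpin shown above. *H19* measured 2234, 2047 and 2001 CPM on the T0 plates, 2542, 7181 and 3835 on those of T3, 8773, 6994 and 9024 on those of T6 and 7595, 5762 and 7436 on those of T9. Every treated plate lay above every T0 plate, while T3, T6 and T9 overlapped. The log2 change was 1.28 ± 0.27 (adjusted p = 0.00235) from T0 to T3 and 2.23 ± 0.27 (adjusted p = 1.84e-05) from T0 to T9. *Igf2* measured 2718, 2849 and 2976 CPM on the T0 plates, 4520.3, 8972 and 6234 on those of T3, 10024, 6684 and 12038 on those of T6 and 7880.2, 6224 and 9895 on those of T9. Its treated plates also all lay above T0 and overlapped each other, with log2 changes of 1.40 ± 0.23 (adjusted p = 4.55e-04) at T3 and 1.96 ± 0.24 (adjusted p = 1.59e-05) at T9. From T3 on *Igf2* held 8972 to 12038 CPM in the plates with more reads outside features and 4520.3 to 7880.2 CPM in those with fewer. The kinds of plate did not overlap. Of the 5723 exon bases of *Igf2*, 3596 (62.8%) are shared on the same strand with *Gm49394*, which has no entry in the table, so its UMIs may include reads of that model.

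*Igf2r* (chr17:12682406-12769664), the receptor that clears IGF2 from the cell surface, was not called. It measured 339, 304 and 354 CPM on the T0 plates, 143, 381 and 216 on those of T3, 505, 188 and 499 on those of T6 and 235, 153 and 473 on those of T9. From T3 on it held 381 to 505 CPM in the 4 plates with more such reads and 143 to 235 CPM in the 5 plates with fewer, so the 2 kinds of plate did not overlap. The T9 change against T0 was 0.20 ± 0.32 (adjusted p = 0.631), and 0.71 ± 0.18 (adjusted p = 0.00367) with the kind of plate as a covariate. *Airn*, the antisense RNA that silences the paternal copy of *Igf2r*, ranged from 25.5 to 74.7 CPM over the 12 plates and was not called over time. From T3 on *Airn* held 51.5 to 74.7 CPM in the plates with more such reads and 25.5 to 49.8 CPM in those with fewer.

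At the *Peg10*-*Sgce* locus on chromosome 6, *Peg10* and *Asb4* fell by more than any other member called, both at T3 and at T9. *Peg10* (chr6:4747306-4760517), a gene derived from a retrotransposon and needed for the placenta, measured 1428, 1477 and 1499.9 CPM on the T0 plates, 39.00, 109.7 and 85.6 on those of T3, 68.3, 66.1 and 157 on those of T6 and 33.9, 42.1 and 40.8 on those of T9. All later plates lay far below the T0 plates, with log2 changes of −4.04 ± 0.34 (adjusted p = 1.09e-06) at T3 and −4.74 ± 0.35 (adjusted p = 1.63e-07) at T9. *Asb4* (chr6:5383386-5433022), which encodes an adaptor of a ubiquitin ligase, measured 118, 156 and 184 CPM on the T0 plates, 14.6, 9.94 and 4.87 on those of T3, 6.14, 4.45 and 4.04 on those of T6 and 0.814, 0.963 and 2.98 on those of T9. Its groups stood in 3 steps, T0 above T3 and T6 and these above T9, where the plates held 3, 3 and 9 UMIs. The log2 change was −3.78 ± 0.35 (adjusted p = 2.82e-06) at T3 and −6.14 ± 0.43 (adjusted p = 8.23e-08) at T9.

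Both neighbours of *Peg10* described next were called too. *Sgce*, which encodes epsilon-sarcoglycan and starts beside *Peg10* on the opposite strand, measured 75.96, 68.03 and 83.9 CPM on the T0 plates, 80.1, 102 and 86.3 on those of T3, 71.9, 56.3 and 80.8 on those of T6 and 78.2, 65.8 and 105 on those of T9. These groups overlapped on the CPM scale, and the called rises of 0.46 ± 0.16 (adjusted p = 0.0355) at T3 and 0.60 ± 0.15 (adjusted p = 0.00623) at T9 depend on the scaling: on plate totals neither was called. The T3 call also ended without T3 plate 1, T3 plate 3, T0 plate 1 or T0 plate 2, at adjusted p of 0.0827 to 0.133. *Ppp1r9a*, which encodes the actin-binding protein neurabin, measured 56.2, 65.3 and 67.2 CPM on the T0 plates, 23.9, 57.1 and 25.4 on those of T3, 36.6, 7.63 and 37.6 on those of T6 and 6.52, 9.95 and 21.9 on those of T9. Its T6 and T9 plates lay below all T0 plates, T3 overlapped T0, and the call at T9 was −1.89 ± 0.42 (adjusted p = 0.00214). At T3, T6 and T9 alike the plates with more reads outside features held the higher values. From T3 on *Ppp1r9a* held 21.9 to 57.1 CPM in these plates and 6.52 to 25.4 CPM in those with fewer.

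At the *Dlk1*-*Meg3* locus on chromosome 12 the paternally expressed *Dlk1* (chr12:109452823-109463336) rose by T3 and by T9, when its rise was the largest among the members called. *Dlk1* is a membrane protein of the EGF repeat family, related to Notch ligands, that is known for holding back adipocyte differentiation. It measured 1147, 1066 and 1322 CPM on the T0 plates, 4266, 5903 and 4756 on those of T3, 7173, 6645 and 8311 on those of T6 and 9977, 7353 and 10514 on those of T9. The T0, T3 and T6 plates stood in rising steps without overlap, and T9 overlapped T6. The log2 change was 2.30 ± 0.23 (adjusted p = 4.81e-06) at T3 and 3.47 ± 0.24 (adjusted p = 6.90e-08) at T9, which is 11.1-fold. *Rtl1* (chr12:109589193-109600330), a retrotransposon-derived gene needed in placental vessels, was near the limit of detection, with 2, 9 and 2 UMIs on the T0 plates, 5, 23 and 18 on those of T3, 33, 14 and 30 on those of T6 and 13, 3 and 9 on those of T9. Its T3 and T6 plates lay above T0 on the CPM scale, T9 overlapped T0, and the changes were 2.66 ± 0.64 (adjusted p = 0.00580) at T3 and 1.75 ± 0.67 (adjusted p = 0.0452) at T9. The T9 call of *Rtl1* ended without T9 plate 1, T9 plate 3, T0 plate 1 or T0 plate 3 (adjusted p of 0.0641 to 0.215) and on plate totals, and *Rtl1* was too low to be tested when each cell was thinned to 3000 UMIs or with only the 6 plates compared.

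The maternally expressed noncoding RNAs of this locus, *Meg3* (chr12:109541001-109571726), *Rian* and *Mirg*, which host the microRNAs shown above and small nucleolar RNAs, were not called. *Meg3* measured 30.9, 26.1 and 35.8 CPM on the T0 plates, 14.04, 112 and 24.4 on those of T3, 110.2, 9.54 and 119 on those of T6 and 5.97, 3.53 and 59.7 on those of T9. From T3 on the 2 kinds of plate did not overlap, with 59.7 to 119 CPM in the 4 plates with more such reads and 3.53 to 24.4 CPM in the 5 plates with fewer. The T9 change was −0.13 ± 0.85 (adjusted p = 0.913) over all plates, but 0.98 ± 0.26 (adjusted p = 0.00434) with the kind of plate as a covariate. Among the plates with more such reads alone, a fit added after the data were seen, the change was 1.12, with T9 plate 3 as the only plate of T9. At T3 it was 0.82 ± 0.83 (adjusted p = 0.475) over all plates and 2.17 ± 0.25 (adjusted p = 3.06e-06) with the covariate. *Rian* measured 5.36, 6.94 and 8.87 CPM on the T0 plates, 2.08, 20.2 and 13.2 on those of T3, 23.5, 5.72 and 17.8 on those of T6 and 4.34, 3.21 and 8.95 on those of T9. At T3, T6 and T9 alike the plates with more such reads held the higher values, with a T3 change of 0.95 ± 0.52 (adjusted p = 0.179), and 1.57 ± 0.43 (adjusted p = 0.00815) with the covariate. *Mirg* reached 1.39 to 5.94 CPM. The noncoding RNAs *Malat1* and *Neat1*, which are not members, also differed between the kinds of plate from T3 on, without overlap. *Malat1* held 6271 to 7741 CPM in the plates with more such reads and 1385 to 4600 CPM in those with fewer. *Neat1* held 28.3 to 69.3 CPM and 4.17 to 16.8 CPM in the same order. The part that the reads outside features have in these values was not tested.

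At the *Nnat*-*Blcap* locus on chromosome 2, *Nnat* stood in 4 falling steps that did not overlap. *Nnat* (chr2:157560078-157562522), neuronatin, is a small membrane protein of the endoplasmic reticulum whose gene lies within an intron of *Blcap*. It measured 173, 193 and 161 CPM on the T0 plates, 27.6, 43.4 and 38.6 on those of T3, 17.1, 14.9 and 16.9 on those of T6 and 10.6, 4.17 and 7.96 on those of T9. The log2 changes were −2.04 ± 0.24 (adjusted p = 2.19e-05) at T3, −1.14 ± 0.25 (adjusted p = 0.0185) from T3 to T6 and −4.01 ± 0.27 (adjusted p = 5.67e-08) from T0 to T9. The T3 to T6 call ended without T6 plate 1, T6 plate 3 or T3 plate 3 (adjusted p of 0.0767 to 0.0819). *Blcap*, a gene named for reduced expression in bladder cancer, measured 24.03, 24.8 and 29.04 CPM on the T0 plates, 28.1, 30.6 and 23.3 on those of T3, 27.4, 27.7 and 28.3 on those of T6 and 23.3, 26.00 and 29.5 on those of T9, so its groups overlapped. Its call at T9 of 0.51 ± 0.20 (adjusted p = 0.0486) was absent on plate totals, and ended without any 1 of T9 plates 1 and 2 and the T0 plates (adjusted p of 0.0510 to 0.150) and after thinning.

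**Figure D2:**
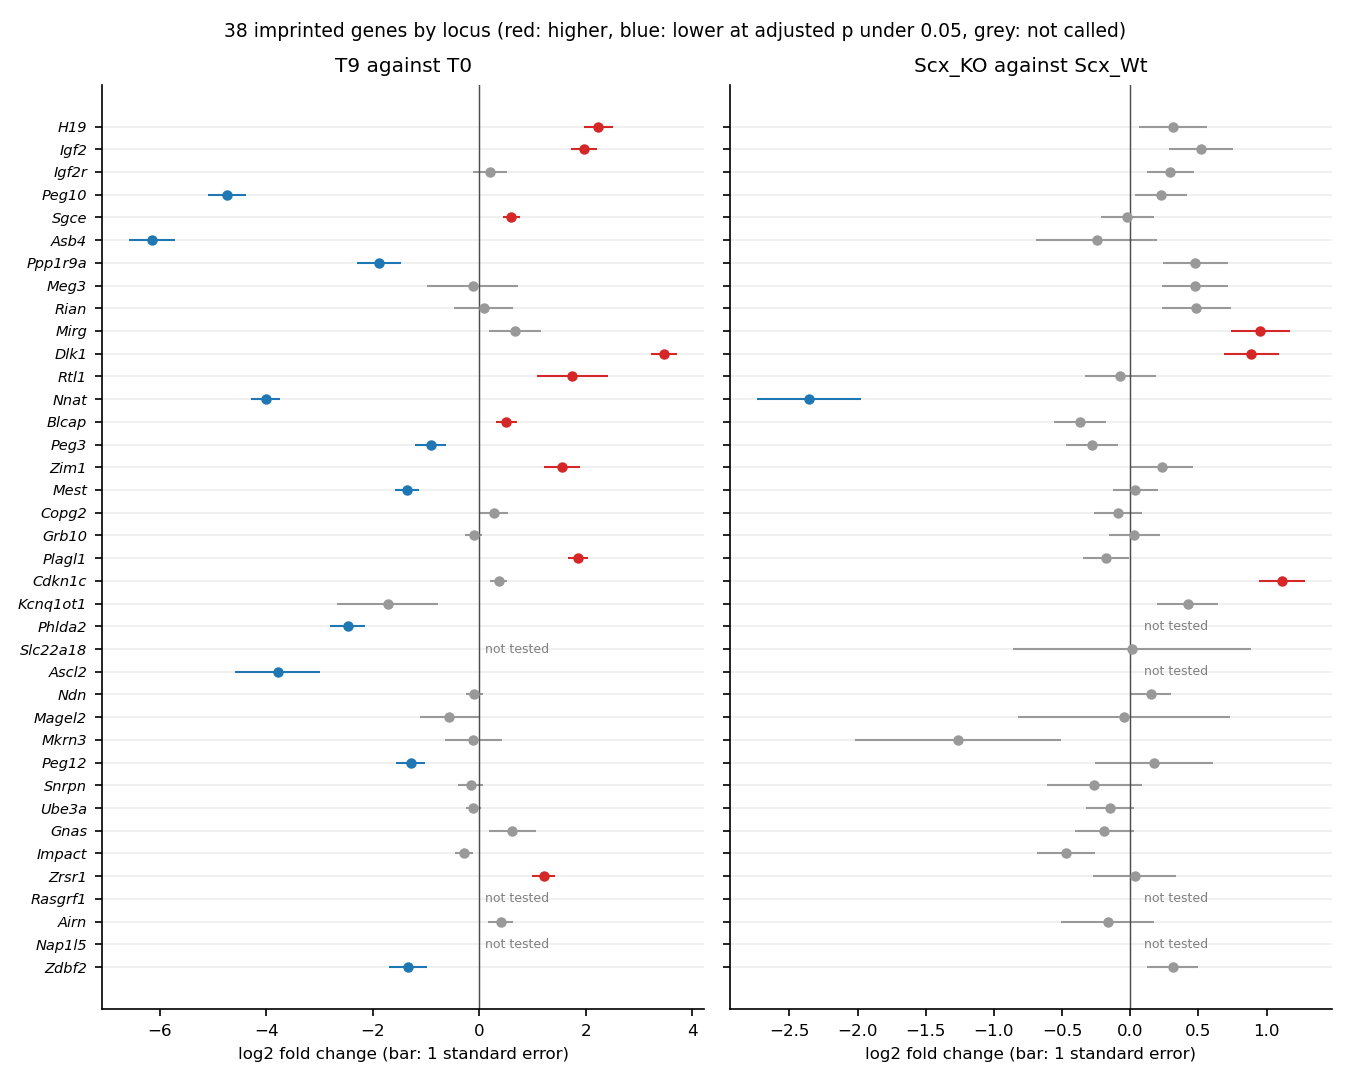
Log2 fold changes ± 1 SE of the imprinted members for T9 against T0 in cells and for Scx_KO against Scx_Wt in tendon, with red for members called higher, blue for members called lower and grey for those not called. *Asb4* and *Peg10* lie farthest to the left and *Dlk1* farthest to the right at T9, while in tendon 4 members are coloured and most lie near 0.

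The zinc finger genes moved in different directions. *Peg3* (chr7:6703892-6730431), a transcription factor that acts on growth and maternal care, measured 1471, 1669 and 1926 CPM on the T0 plates, 565, 1013 and 649 on those of T3, 1394, 671 and 1438 on those of T6 and 424, 424 and 1204 on those of T9. All later plates lay below T0, and from T3 on the level also differed with the kind of plate (1013 to 1438 CPM in the 4 plates with more such reads and 424 to 671 CPM in the 5 plates with fewer). The changes of −0.99 ± 0.29 (adjusted p = 0.0181) at T3 and −0.92 ± 0.29 (adjusted p = 0.0193) at T9 did not hold without some of the plates. The T3 call ended without T3 plate 1, T3 plate 3, T0 plate 2 or T0 plate 3 (0.0504 to 0.0748 as the adjusted p), and the T9 call without T9 plate 1, T9 plate 2 or T0 plate 3 (adjusted p of 0.0749 to 0.0871) and among the plates with more reads outside features. *Zim1*, its maternally expressed neighbour, measured 16.3, 23.8 and 25.5 CPM on the T0 plates, 21.3, 58.5 and 26.8 on those of T3, 68.6, 27.98 and 75.1 on those of T6 and 32.04, 34.3 and 78.6 on those of T9, with T9 above all T0 plates, and rose by T9 (1.56 ± 0.34, adjusted p = 0.00192). From T3 on *Zim1* held 58.5 to 78.6 CPM in the 4 plates with more such reads and 21.3 to 34.3 CPM in the 5 plates with fewer, so the kinds of plate did not overlap. On plate totals it was not called.

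*Plagl1* (chr10:13060504-13131694), a zinc finger transcription factor known to act on other imprinted genes, was called higher in 2 of the 3 steps. It measured 104, 112 and 110.2 CPM on the T0 plates, 135, 140.3 and 149 on those of T3, 201, 159.9 and 213 on those of T6 and 274, 200.3 and 386 on those of T9. The T0, T3 and T6 plates did not overlap, whereas T9 overlapped T6. It rose by 0.62 ± 0.18 (adjusted p = 0.0188) at T3, 0.80 ± 0.18 (adjusted p = 0.0433) from T6 to T9 and 1.86 ± 0.19 (adjusted p = 2.80e-06) from T0 to T9. The change from T3 to T6, 0.44 ± 0.18 (adjusted p = 0.212), was not called. Leaving out T3 plate 1, T3 plate 3 or T0 plate 1 ended the T3 call (adjusted p of 0.0620 to 0.0822), and leaving out T9 plate 1, T6 plate 1 or T6 plate 3 ended that from T6 to T9 (adjusted p of 0.159 to 0.193). On plate totals *Plagl1* was called from T0 to T9 only, and with only the 6 plates compared it was not called from T6 to T9.

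*Mest* (chr6:30723547-30748465), a mesoderm-specific gene of the hydrolase family that is high in fetal fat and mesenchyme and carries miR-335, fell by T3 and rose again by T6. It measured 219, 302 and 401 CPM on the T0 plates, 64.5, 120.4 and 84.2 on those of T3, 196, 135 and 215 on those of T6 and 86.6, 70.3 and 102 on those of T9. T3 lay below T0, T6 lay above T3 and below T0, and T9 lay below T6, with no overlap between successive groups. The changes were −1.58 ± 0.23 (adjusted p = 1.54e-04) at T3, 1.05 ± 0.23 (adjusted p = 0.0180) from T3 to T6 and −1.35 ± 0.23 (adjusted p = 2.82e-04) from T0 to T9, and the last step of −0.82 ± 0.23 (adjusted p = 0.0912) was not called. The rise at T6 ended without T6 plate 1, T6 plate 3, T3 plate 1 or T3 plate 3 (adjusted p of 0.0619 to 0.0922) and on plate totals. *Copg2*, a coat protein subunit gene that shares 912 exon bases with *Mest* on the opposite strand, was not called and ranged from 9.28 to 22.5 CPM.

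The *Kcnq1ot1* locus on chromosome 7 held members that fell and members that were not called. *Phlda2* (chr7:143501545-143503150), a small pleckstrin homology domain protein that restrains placental growth, measured 63.9, 80.1 and 44.6 CPM on the T0 plates, 4.68, 9.57 and 9.05 on those of T3, 7.42, 1.59 and 3.57 on those of T6 and 7.87, 6.74 and 9.61 on those of T9. All later plates lay below T0, with changes of −2.77 ± 0.34 (adjusted p = 3.63e-05) at T3 and −2.47 ± 0.33 (adjusted p = 3.83e-05) at T9. *Ascl2*, a basic helix-loop-helix factor of trophoblast and stem cells, gave 93, 71 and 54 UMIs on the T0 plates, 5, 15 and 7 on those of T3, 3, 0 and 2 on those of T6 and 0, 8 and 0 on those of T9. Its changes were −2.05 ± 0.67 (adjusted p = 0.0312) and −3.79 ± 0.79 (adjusted p = 0.00151), and the T3 call ended when any plate of T0 or T3 other than T3 plate 2 was left out (adjusted p of 0.0742 to 0.107) and after thinning. The 8 UMIs of T9 came from plate 2, the T9 plate with the highest sum of pluripotent markers (296 CPM), whose part in them was not tested.

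*Cdkn1c* (chr7:143458339-143461050), which encodes the cyclin-dependent kinase inhibitor p57 and holds cells out of the cycle, was not called over time. It measured 845, 931 and 851 CPM on the T0 plates, 779, 1220 and 996 on those of T3, 1251, 943 and 1136 on those of T6 and 776, 681 and 961 on those of T9. Its groups overlapped, and the T9 change was 0.36 ± 0.17 (adjusted p = 0.0906), or 0.35 ± 0.14 (adjusted p = 0.0415) with the kind of plate as a covariate. *Kcnq1ot1*, the long antisense RNA that silences the paternal copy of the cluster, measured 238, 190.2 and 184 CPM on the T0 plates, 27.04, 189 and 26.5 on those of T3, 195, 7.63 and 193 on those of T6 and 7.06, 12.8 and 134 on those of T9. From T3 on it held 134 to 195 CPM in the 4 plates with more such reads and 7.06 to 27.04 CPM in the 5 plates with fewer, so the 2 kinds of plate did not overlap. Its T9 change was −1.72 ± 0.95 (adjusted p = 0.152). *Slc22a18*, a transporter gene, gave 0 to 2.62 CPM and was not tested.

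In the *Snrpn*-*Ndn* region on chromosome 7, the region of the Prader-Willi genes, *Ndn* and *Peg12* were called. *Ndn* (chr7:62346569-62350262), necdin, a growth-restraining protein of the MAGE family, measured 94.6, 94.2 and 93.6 CPM on the T0 plates, 47.3, 67.7 and 66.5 on those of T3, 116, 74.7 and 110.3 on those of T6 and 59.5, 50.4 and 81.2 on those of T9. T3 lay below both T0 and T6. The rise from T3 to T6 was 0.73 ± 0.16 (adjusted p = 0.0180), the step before it, −0.41 ± 0.16 (adjusted p = 0.0620), was not called, and T9 differed from T0 by −0.09 ± 0.16 (adjusted p = 0.655). The T6 call ended without T6 plate 1, T6 plate 3, T3 plate 1 or T3 plate 2 (adjusted p of 0.0611 to 0.0942), on plate totals, with only the 6 plates compared and after thinning. *Peg12*, a FRAT family gene whose relatives bind the kinase GSK3, measured 30.3, 29.6 and 27.4 CPM on the T0 plates, 5.20, 17.7 and 11.1 on those of T3, 15.3, 12.7 and 14.5 on those of T6 and 7.06, 9.63 and 8.62 on those of T9. Every later plate lay below T0, with changes of −1.14 ± 0.27 (adjusted p = 0.00558) at T3 and −1.29 ± 0.27 (adjusted p = 0.00162) at T9, both of which ended after thinning. *Snrpn*, a small nuclear ribonucleoprotein gene, ranged from 30.7 to 72.3 CPM, and *Ube3a*, a ubiquitin ligase gene imprinted in neurons, from 179 to 342 CPM, while *Magel2* held 0.543 to 7.73 CPM and *Mkrn3* 1.61 to 10.8 CPM. None of these 4 was called over time.

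Of the remaining members, *Impact*, whose product restrains the stress kinase GCN2, measured 84.97, 77.8 and 70.99 CPM on the T0 plates, 34.8, 47.9 and 30.98 on those of T3, 56.5, 45.5 and 49.9 on those of T6 and 38.01, 47.2 and 51.05 on those of T9. All later plates lay below T0, and it fell at T3 (−0.82 ± 0.17, adjusted p = 0.00188), whereas the T9 change of −0.29 ± 0.16 (adjusted p = 0.158) was called only on plate totals. From T3 on *Impact* held 47.9 to 56.5 CPM in the plates with more reads outside features and 30.98 to 47.2 CPM in those with fewer. *Zrsr1* (chr11:22972005-22976496), a retrotransposed splicing factor gene within *Commd1*, shares 412 exon bases with it on the opposite strand. *Zrsr1* measured 40.3, 44.7 and 40.6 CPM on the T0 plates, 39.00, 51.9 and 49.1 on those of T3, 64.5, 50.2 and 72.5 on those of T6 and 65.7, 40.8 and 108 on those of T9. It overlapped between T0 and T9 and was called at T9 (1.21 ± 0.22, adjusted p = 4.37e-04). *Zdbf2*, a zinc finger gene, measured 26.4, 33.8 and 31.5 CPM on the T0 plates, 13, 23.6 and 10.1 on those of T3, 13.8, 6.995 and 24.2 on those of T6 and 8.14, 9.95 and 7.29 on those of T9. Its plates from T3 on lay below T0, and the T9 change was −1.34 ± 0.35 (adjusted p = 0.00665). *Grb10*, an adaptor that restrains the insulin and IGF receptors, ranged from 391 to 746 CPM and was not called. *Gnas*, the gene of the stimulatory G protein alpha subunit, gave only 2.86 to 17.3 CPM, and *Rasgrf1* (0 to 2.21 CPM) and *Nap1l5* (0 to 0.543 CPM) were at the limit of detection. From T3 on *Grb10* held 673 to 737 CPM in the plates with more reads outside features and 391 to 543 CPM in those with fewer. *Gnas* held 8.80 to 17.3 CPM and 2.86 to 6.10 CPM in the same order.

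In the tendons the order of levels by length was headed by *H19*, which held 2364 to 3294 RPKM over the 4 samples, then *Igf2* with 516 to 818 RPKM. Neither range overlapped that of another member. *Meg3* held 149 to 223 RPKM, *Cdkn1c* 97.1 to 216 RPKM and *Rian* 108 to 183 RPKM, ranges that overlapped each other and lay above those of the members below. *Dlk1* followed with 39.4 to 90.9 RPKM, *Nnat* with 7.15 to 87.6 RPKM and *Mirg* with 24.1 to 55.8 RPKM, which overlapped too. *Grb10* (36.4 to 45.9 RPKM), *Peg3* (22.4 to 35.01 RPKM), *Ndn* (21.9 to 27.9 RPKM) and *Igf2r* (16.8 to 23.9 RPKM) came next in order of their highest sample, and *Phlda2* had 0 counts in all 4 samples.

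*Scx*, the targeted gene, measured 1151 and 996 counts (51.3 and 40.5 RPKM) in Scx_Wt and 287 and 296 counts (11.5 and 12.5 RPKM) in Scx_KO, a log2 change of −1.88 ± 0.17 (adjusted p = 0.000429). Reads of it were left in both knockout samples, and the deleted part of the gene was not checked against them. Of 34 members tested, 3 rose in Scx_KO, where 1.77% of 14602 genes were called higher, and 1 fell, where 2.07% were called lower, so 4 members passed. The median log2 change of the members was 0.03 beside −0.00 over all genes.

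*Cdkn1c*, the kinase inhibitor gene, rose in the knockout tendons. It measured 2215 and 2561 counts (97.1 and 102 RPKM) in Scx_Wt and 5458 and 4880 counts (216 and 203 RPKM) in Scx_KO. Both knockout samples lay above both wild-type samples, by 1.11 ± 0.17 (adjusted p = 0.00626) on the log2 scale, or 2.16-fold. *Dlk1* measured 3564 and 2730 counts (56.3 and 39.4 RPKM) in Scx_Wt and 5568 and 6059 counts (79.4 and 90.9 RPKM) in Scx_KO. The groups did not overlap, and the change was 0.89 ± 0.20 (adjusted p = 0.0423), but the call ended without Scx_KO sample 2 or Scx_Wt sample 2 (adjusted p of 0.105 to 0.106) and on library totals. *Mirg*, the noncoding RNA that hosts the microRNA cluster distal to *Meg3*, measured 1966 and 3078 counts (24.1 and 34.4 RPKM) in Scx_Wt and 5043 and 4724 counts (55.8 and 55.00 RPKM) in Scx_KO. It rose by 0.95 ± 0.21 (adjusted p = 0.0421), and its call ended without Scx_KO sample 1, Scx_KO sample 2 or Scx_Wt sample 1 (adjusted p of 0.0558 to 0.114). *Nnat* fell. It measured 1793 and 1329 counts (87.6 and 59.3 RPKM) in Scx_Wt and 468 and 154 counts (20.6 and 7.15 RPKM) in Scx_KO, so the groups did not overlap, and the change was −2.36 ± 0.38 (adjusted p = 0.00924).

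Among the other genes of these loci, *Meg3* measured 30056 and 39716 counts (149 and 179 RPKM) in Scx_Wt and 49307 and 47579 counts (219.8 and 223 RPKM) in Scx_KO, a change of 0.48 ± 0.24 (adjusted p = 0.357), and *Rian* measured 22108 and 31720 counts (108 and 142 RPKM) in Scx_Wt and 35522 and 39404 counts (157 and 183 RPKM) in Scx_KO, a change of 0.48 ± 0.25 (adjusted p = 0.375). *Igf2* changed by 0.52 ± 0.23 (adjusted p = 0.298) and *H19* by 0.31 ± 0.25 (adjusted p = 0.579). None of these was called, although *Meg3* and *Rian* were when Scx_Wt sample 2 was left out.

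The makeup of the tendon samples differed by genotype, and fewer cells of a type and less RNA per cell cannot be told apart in bulk tissue. The tenocyte markers summed to 153730 to 166840 CPM in Scx_Wt and 72428 to 83465 CPM in Scx_KO, the cartilage markers to 2366 to 2561 against 109 to 139 CPM, and the adipocyte markers to 1616 to 3688 against 505 to 995 CPM. Of the listed genes of these 3 types only *Snorc*, a cartilage marker, was at 0. Skeletal muscle markers summed to 32640 to 61973 CPM in Scx_Wt and 79064 to 82518 CPM in Scx_KO, and dividing markers to 122 to 132 and 172 to 186 CPM. Peripheral nerve markers summed to 1157 to 1241 CPM in Scx_Wt but to 7904 and 319 CPM in the 2 knockout samples. The part of these differences in the changes of *Cdkn1c*, *Dlk1*, *Mirg* and *Nnat* was not tested.

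**Figure D3:**
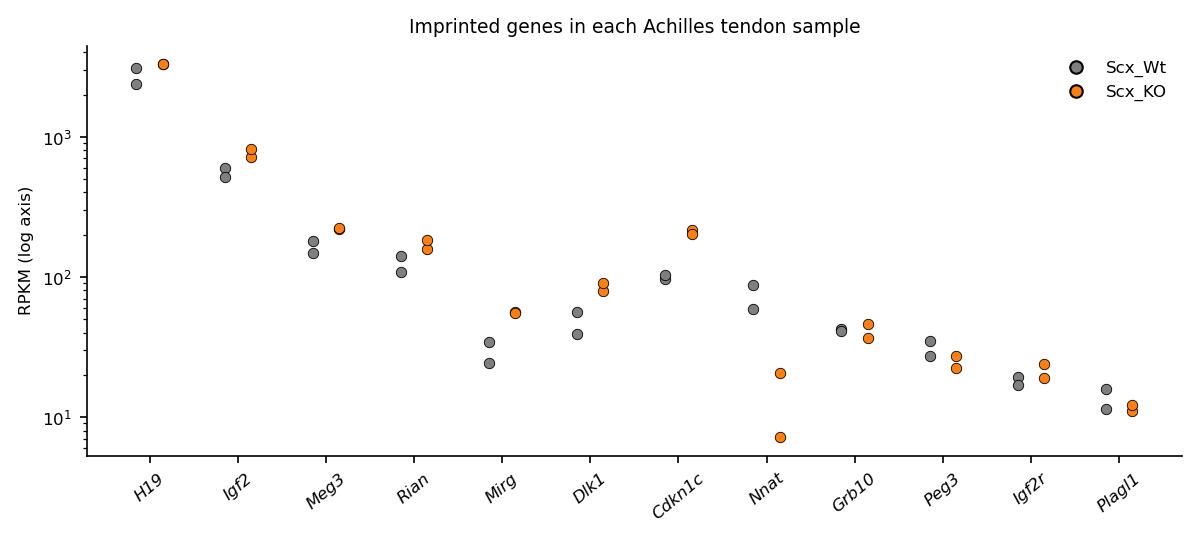
Level in RPKM (log axis) of 12 imprinted genes in each of the 2 Scx_Wt and 2 Scx_KO tendon samples, 1 point per sample. *H19* and *Igf2* are highest, *Cdkn1c*, *Dlk1* and *Mirg* are higher in both Scx_KO points and *Nnat* is lower.

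Dividing cells were compared with the other cells of the same plates. A cell with at least 3 UMIs over 8 division genes, none of them a member, was counted as dividing, which gave 2292 dividing and 2302 other cells, with 352 cells at 3 UMIs and 541 at 2. Dividing cells were deeper on every plate (from a median of 12350 against 3836.5 UMIs on T0 plate 1 to 9056 against 6625.5 on T9 plate 3). Plate was a block in the fit. Of 30 members tested, 1 was higher in dividing cells, where 10.7% of 10092 genes were called higher, and 10 were lower, where 7.07% were called lower. The members' median log2 difference was −0.21, beside −0.02 over all genes.

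*Cdkn1c* was lower in dividing cells on 12 of 12 plates. The lowest, median and highest plates held 410.1, 855 and 1159 CPM in dividing cells and 789, 1101 and 1523 CPM in other cells, a log2 difference of −0.47 ± 0.06 (adjusted p = 5.23e-07). *Igf2* was lower on 11 of 12 plates. Its lowest, median and highest values were 2670, 5900 and 11217 CPM in dividing cells and 2743, 7058 and 13297 CPM in other cells, with a difference of −0.32 ± 0.06 (adjusted p = 1.63e-04). *H19*, lower on 10 of 12 plates, held 1975, 5435 and 8465 CPM in dividing cells and 1664, 6688 and 10459 CPM in other cells as the lowest, median and highest (−0.24 ± 0.06, adjusted p = 0.00714). In all 3 the ranges over plates overlapped between the classes.

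The other members called lower in dividing cells included the receptor *Igf2r* and its antisense RNA *Airn*. *Igf2r* had a lowest, median and highest level of 128, 309 and 488 CPM in dividing cells and 150.3, 339.9 and 532 CPM in other cells, a difference of −0.20 ± 0.07 (adjusted p = 0.0435), and was lower on 10 of 12 plates. *Airn* had 21.3, 38.5 and 68.7 CPM in dividing cells and 24.5, 57.5 and 84.7 CPM in other cells in the same order (−0.54 ± 0.12, adjusted p = 0.00163, lower on 9 of 12 plates). The *Igf2r* call was the least stable of the set, since it ended without any 1 of the 9 plates other than T0 plate 1, T3 plate 3 and T6 plate 2 (adjusted p of 0.0515 to 0.140). *Grb10*, the adaptor described above, had 325, 676 and 741 CPM in dividing cells and 424, 673 and 1135 CPM in other cells (−0.25 ± 0.06, adjusted p = 0.00708, lower on 9 of 12 plates).

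*Nnat* had 1.13, 18.96 and 188 CPM in dividing cells and 5.39, 27.7 and 279 CPM in other cells (−0.53 ± 0.15, adjusted p = 0.0120, lower on 9 of 12 plates), and *Blcap* had 18.6, 23.5 and 31.6 CPM in dividing cells and 23.3, 30.97 and 66.3 CPM in other cells (−0.43 ± 0.14, adjusted p = 0.0299, lower on 9 of 12 plates). *Ppp1r9a* had 3.87, 30.2 and 62.8 CPM in dividing cells and 5.82, 36.2 and 119 CPM in other cells (−0.52 ± 0.14, adjusted p = 0.00657, lower on 9 of 12 plates). *Impact* had 28.8, 45.2 and 82.3 CPM in dividing cells and 34.2, 51.5 and 135 CPM in other cells (−0.32 ± 0.10, adjusted p = 0.0249, lower on 10 of 12 plates). The call of *Blcap* ended without T0 plate 3, T3 plate 1, T3 plate 3, T6 plate 1 or T9 plate 3 (adjusted p of 0.0533 to 0.0888), and that of *Impact* without T0 plate 1, T6 plate 1 or T9 plate 1 (adjusted p of 0.0520 to 0.0702). *Phlda2* was the member higher in dividing cells, on 11 of 12 plates, with 0, 12.3 and 85.9 CPM in dividing cells and 0, 3.21 and 33.9 CPM in other cells and a difference of 1.59 ± 0.28 (adjusted p = 8.56e-05). When each cell was thinned to 3000 UMIs, the calls of *Ppp1r9a* and *Nnat* ended, and when T0 was left out those of *Igf2r*, *Ppp1r9a*, *Nnat* and *Blcap* ended, while *Phlda2* was too low to be tested in both.

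**Figure D4:**
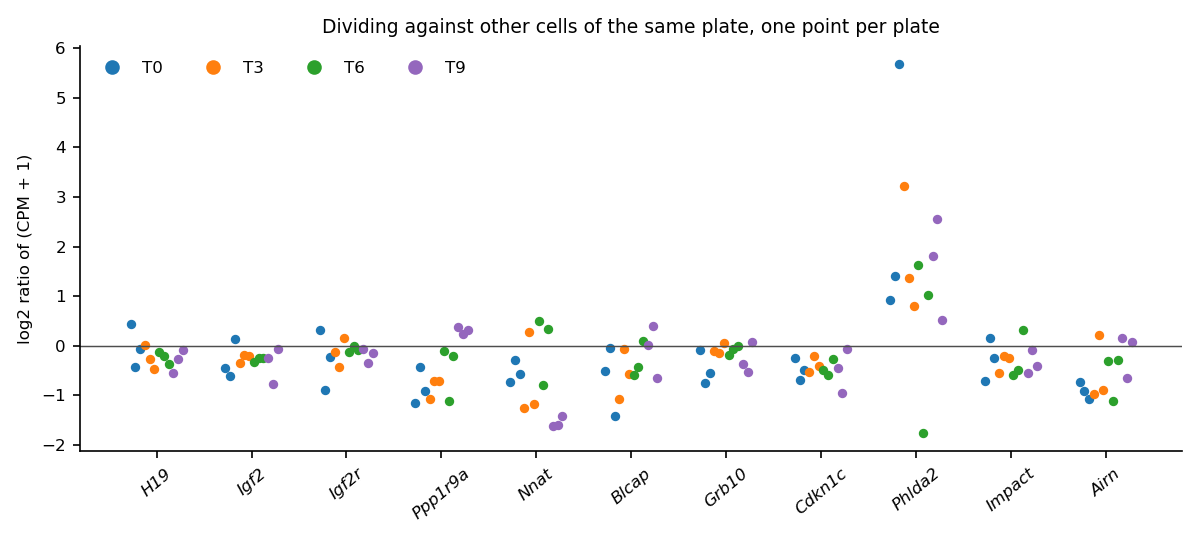
Log2 ratio of CPM + 1 in dividing against other cells of the same plate, 1 point for each of the 12 plates coloured by time point, for the 11 members called. *Cdkn1c* lies below 0 in all plates and *Phlda2* above 0 in 11 of 12.

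At T3 the 933 cells with at least 1 UMI of *Scx* were compared with the 218 cells without, 156 of the first having just 1. Their median UMIs per cell were 4749.5 against 4168.5, 6471 against 6048 and 7048 against 7020 on the 3 plates. Of 28 members tested, 1 was higher in *Scx*-positive cells (0.157% of 8921 genes) and none was lower (0.258%), with 5 members at an unadjusted p under 0.05. The 1 was *Cdkn1c*, with 829, 1296 and 1036 CPM in *Scx*-positive cells and 597, 814 and 761 CPM in the other cells of the same 3 plates. Each plate had the higher value in its *Scx*-positive cells, and the difference was 0.53 ± 0.10 (adjusted p = 0.0196), but it was not called without T3 plate 2 (adjusted p = 0.437) or after thinning (adjusted p = 0.0782). *Dlk1*, with 4528, 6109 and 4853 CPM in *Scx*-positive cells and 3309.7, 4792 and 4182 CPM in the other cells of the same 3 plates, differed by 0.33 ± 0.08 (adjusted p = 0.0640), and *Igf2*, with 4520.1, 9220.3 and 6150.3 CPM in *Scx*-positive cells and 4521, 7639 and 6729 CPM in the other cells of the same 3 plates, by 0.04 ± 0.08 (adjusted p = 0.953).

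Within plates the counts of the members varied between cells. In cells thinned to 3000 UMIs the ratio of variance to mean, which is 1 for counting noise alone, had a median over plates of 12.9 for *Igf2*, 12.8 for *H19* and 10.5 for *Dlk1*. It was 4.29 for *Meg3* and 3.45 for *Cdkn1c*, and 1.07 for both *Copg2* and *Gnas*. The ratio tends to grow with a gene's level, so it does not rank the members by relative variation. On T6 plate 3 it was 19.2 for *Igf2* at a mean of 37.1 UMIs per thinned cell and 7.67 for *Meg3* at a mean of 0.418. Over 4301 thinned cells the within-plate correlation was computed for all 703 pairs of members as a description, and 5 pairs reached an absolute r of 0.2. These were *Meg3* with *Rian* (r = 0.49), *Igf2* with *Dlk1* (0.28), *Meg3* with *Mirg* (0.23), *Phlda2* with *Ascl2* (0.22) and *Igf2* with *Cdkn1c* (0.21). Cells of a plate share its library, and pairs of low genes are sparse.

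*Meg3* was present in few cells and at many UMIs in some of them. Of 4594 cells, 4198 had none, and 128 had 5 or more, a limit chosen after the values were seen. They numbered 30 on the T0 plates, 31 on the T3 plates, 51 on those of T6 and 16 on those of T9. By plate their share ran from 0 of 381 cells on T9 plate 2, for which the exact binomial interval reaches 0.964%, to 6.53% on T6 plate 3 (exact binomial 95% interval 4.27% to 9.49%). Shares were 2.09% to 3.14% at T0, 3.91% to 6.53% on the later plates with more reads outside features and 0% to 1.04% on those with fewer. Median depth was 9174 UMIs in the 128 cells and 7946.5 in the cells without *Meg3*.

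Because 118 of the 128 cells came from the 7 plates with more reads outside features, the classes were compared within each of those plates, against the 2348 cells there without *Meg3*. *Rian*, the next gene along the same strand, was higher in the cells with 5 or more *Meg3* UMIs on 7 of 7 plates, with 62.8 to 275 CPM against 0.360 to 4.91 CPM. *Mirg* was higher on 7 of 7 plates too, with 10.5 to 76.3 CPM against 0.360 to 3.07 CPM, and these levels rest on 1 to 13 UMIs a plate. Over all plates *Rian* was seen in 64.8% of the cells high in *Meg3* and 1.69% of those without, and in 41.5% and 0.885% after thinning.

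*Dlk1*, expressed from the other parental copy, was lower on 6 of the 7 plates. On the T0 plates it stood at 1226, 1057 and 1177 CPM in the cells high in *Meg3* and at 1156, 1116 and 1324 CPM in those without. The later plates held 2919.9 against 6319.6 CPM (T3 plate 2), 3840.1 against 7568 CPM (T6 plate 1), 5116 against 8889 CPM (T6 plate 3) and 7321 against 10635 CPM (T9 plate 3), so *Dlk1* was the lower beside *Meg3* on each of these 4. *Grb10*, *Cdkn1c*, *Ndn*, *Snrpn* and *Phlda2* were also lower on 6 of the 7 plates, so a lower level was not particular to *Dlk1*. *H19* was higher on 4 of the 7 plates and lower on 3. *Kcnq1ot1* was higher on 6 of 7, with 200.2 to 315 CPM against 136 to 236 CPM. Tenocyte markers summed to less in the cells high in *Meg3* on 6 of 7 plates, for example 38045 against 39938 CPM on T9 plate 3 and 7928 against 11087 CPM on T3 plate 2. These are descriptions of cells, with no test.

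**Figure D5:**
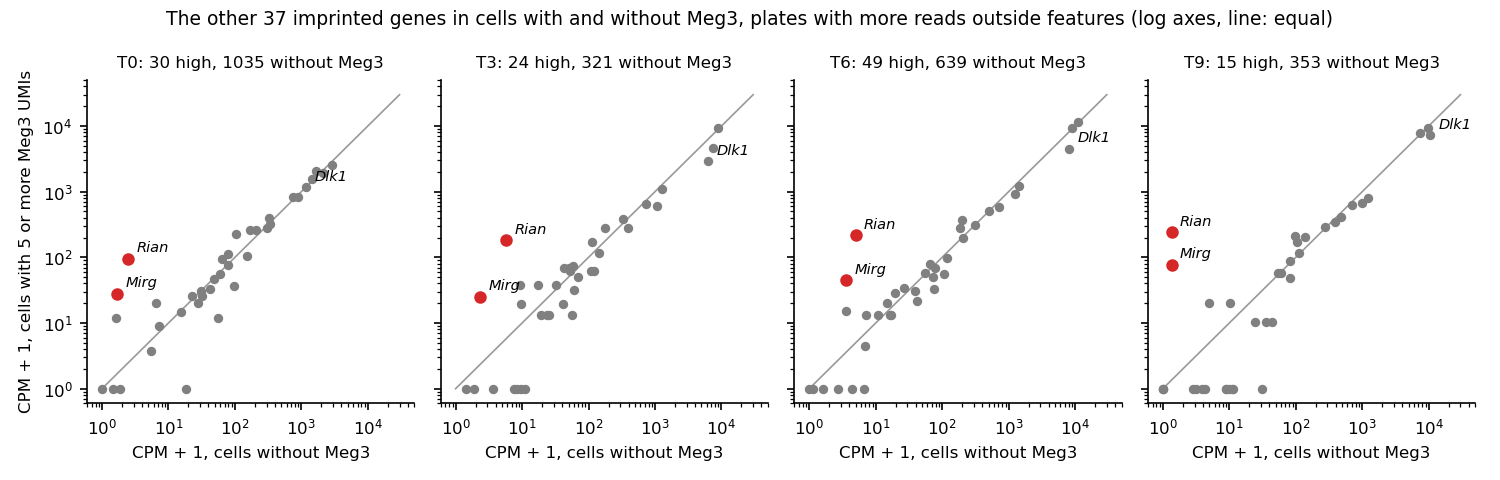
CPM + 1 of the other 37 members in cells with 5 or more *Meg3* UMIs (vertical axis) against cells with none (horizontal axis), both on log axes, over the plates with more reads outside features, in 1 panel per time point with the line of equal levels. *Rian* and *Mirg*, in red, lie above the line at each time point, while *Dlk1* lies on it at T0 and below it later.

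A second small class was seen at T0. The 13 cells with 10 or more *Phlda2* UMIs, a limit also chosen after the values were seen, were all at T0 (6, 5 and 2 on its plates). Beside the 967 T0 cells without *Phlda2*, they held 381 against 6.86 CPM of *Ascl2*, 3675 against 1459 CPM of *Peg10* and 4329 against 2009 CPM of *H19*. They held less of *Grb10* (76.1 against 775 CPM), *Dlk1* (176 against 1226 CPM) and *Mest* (24.2 against 321 CPM). Their median depth was 18503 UMIs against 9748, no doublet caller was run, and no test was made.

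Genes around the members were read from 3 further lists. The list of the insulin-like growth factor axis holds the ligands, receptors and binding proteins through which *Igf2* acts, and other genes such as *Igf2bp1* and *Stc1*. Of its 17 genes tested, 7 rose and 3 fell from T0 to T3, and 10 rose and 3 fell from T0 to T9. Of all genes tested, 17.1% rose and 16.1% fell in the first comparison and 23.6% and 21.6% in the second. From T3 to T6 2 rose (2.61% of all genes), and from T6 to T9 1 rose (0.935%). *Igfbp2*, a binding protein of IGF2, measured 66.9, 69.7 and 49.5 CPM on the T0 plates, 285, 564 and 374 on those of T3, 514, 360.2 and 397 on those of T6 and 480.0, 482 and 626 on those of T9, with every later plate above T0 and a T9 change of 3.58 ± 0.21 (adjusted p = 1.52e-08). *Igf1* measured 98.3, 163 and 127 CPM on the T0 plates, 246, 250.0 and 234 on those of T3, 401, 327 and 453 on those of T6 and 459.6, 395 and 602 on those of T9, and its T9 change was 2.38 ± 0.22 (adjusted p = 1.11e-06). In the knockout tendons 1 of 17 rose (1.77% of all genes) and 1 fell (2.07%). *Igfbp2* measured 30.6 and 22.1 CPM in Scx_Wt and 72.99 and 74.03 CPM in Scx_KO (1.53 ± 0.18, adjusted p = 0.00175), and *Igfbp3* measured 303 and 286 CPM in Scx_Wt and 169 and 174 CPM in Scx_KO (−0.73 ± 0.15, adjusted p = 0.0307). In dividing cells 1 of 14, *Igf2bp1*, was higher (10.7% of all genes) and 3 were lower (7.07%), and none of 14 was called in *Scx*-positive cells, with 2 at an unadjusted p under 0.05.

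The imprint maintenance list holds DNA methyltransferases and the factors that keep methylation at imprinted control regions. None of its 18 genes rose over time, 8 fell by T3 (16.1% of all genes) and 12 by T9 (21.6%), and none was called between T3 and T6 or T6 and T9, with 2 and 6 at an unadjusted p under 0.05. *Uhrf1*, which brings the maintenance methyltransferase to newly made DNA, measured 122, 151 and 143 CPM on the T0 plates, 25.5, 51.2 and 40.4 on those of T3, 38.1, 20.7 and 30.4 on those of T6 and 11.7, 13.2 and 16.6 on those of T9. Its plates fell below T0 from T3 on, with a T9 change of −2.85 ± 0.21 (adjusted p = 1.37e-07). *Dnmt1*, that methyltransferase, measured 188, 216 and 200.3 CPM on the T0 plates, 80.6, 102 and 86.7 on those of T3, 107, 63.6 and 93.4 on those of T6 and 36.7, 33.4 and 72.3 on those of T9, a T9 change of −1.65 ± 0.19 (adjusted p = 9.05e-06), and *Trim28*, a corepressor at imprints, changed by −1.52 ± 0.18 (adjusted p = 1.28e-05). In dividing cells 9 of 17 genes of this list were higher, where 10.7% of all genes were, and none was lower. The dividing markers went from 2386 to 2541 CPM at T0 to 611 to 1007 CPM at T9, and their part in the falls was not tested. In tendon none of 15 was called, with 1 at an unadjusted p under 0.05, and in *Scx*-positive cells 1 of 16 was lower (0.258% of all genes), *Dnmt3l* (−2.26 ± 0.41, adjusted p = 0.0113).

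Of 45 other imprinted genes, 29 could be tested over time. From T0 to T3 7 rose and 6 fell, then 2 rose in each of the next steps, and 10 rose and 4 fell from T0 to T9. The shares of all genes were 17.1% higher and 16.1% lower at T3, 2.61% and 0.935% higher in the next steps, and 23.6% higher and 21.6% lower at T9. *Dcn*, which encodes the tendon proteoglycan decorin and is imprinted in placenta, measured 5.79, 3.24 and 7.80 CPM on the T0 plates, 263, 219 and 213 on those of T3, 1123, 888 and 1156 on those of T6 and 2491, 2444 and 2806 on those of T9, rising without overlap at each step, with a T9 change of 9.34 ± 0.35 (adjusted p = 3.63e-10). *Axl*, a receptor kinase gene, changed by 2.45 ± 0.21 (adjusted p = 5.79e-07) and *Cd81*, a tetraspanin gene of the *Kcnq1ot1* region, by 2.32 ± 0.22 (adjusted p = 1.90e-06). *Casd1*, the neighbour of *Sgce*, fell (−2.21 ± 0.24, adjusted p = 5.62e-06). In tendon 5 of 39 were higher in Scx_KO, where 1.77% of all genes were, and none was lower. *Cobl* measured 42.5 and 47.97 CPM in Scx_Wt and 98.3 and 94.1 CPM in Scx_KO (1.13 ± 0.16, adjusted p = 0.00486), and *Ddc*, the neighbour of *Grb10*, measured 6.17 and 13.9 CPM in Scx_Wt and 39.4 and 37.9 CPM in Scx_KO (1.97 ± 0.34, adjusted p = 0.0131). *Th*, the gene of tyrosine hydroxylase, had 0.0894 and 0.163 CPM in Scx_Wt and 30.6 and 20.7 CPM in Scx_KO, which rests on 1 and 2 counts in the wild-type samples. In dividing cells 5 of 24 were lower (7.07% of all genes) and none higher, and none of 21 was called in *Scx*-positive cells, with 4 at an unadjusted p under 0.05.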

How the data were processed

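Cells of T0, T3, T6 and T9 (3 plates each) were measured by CEL-Seq2, and Achilles tendons of Scx_Wt and Scx_KO mice (2 each) by poly(A) RNA sequencing. The authors deposited raw counts: UMI counts per gene and well, made with HISAT2 2.2.1, featureCounts and UMI-tools 1.0.1, and bulk read counts per gene, made with HISAT2 2.0.4 and featureCounts 1.5.0, both on GRCm38. RPKM values were computed from the counts and GENCODE vM21 exon lengths. Of 29632 single-cell entries 94 (0.0862% of UMIs), and of 47729 bulk entries 419, had no match in vM21, whose GRCm38 coordinates are given for genes. Wells with at least 200 detected genes (4594 of 4608) were summed per plate. The 384 well barcodes are shared by all plates by design.

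Sums were tested with edgeR 4.0.16 in R 4.3.3 (filterByExpr, TMM, quasi-likelihood F test, Benjamini-Hochberg over all genes tested, adjusted p under 0.05, SE from the fold change and F). Time points shared 1 fit over 12 plates, and class comparisons had plate as a block. The procedure was tested on simulated data. Within groups no 2 samples held identical values, and all replicate pairs differed by more than sampling noise. Alternatives were DESeq2 1.42.0, other scalings and filters, thinning to 3000 UMIs, a replicate block, the kind of plate as a covariate, and leaving out each sample, while plate totals and fits within 1 kind of plate were added after the data were seen. Members and lists were chosen with earlier results of these data known. Every member that passed a test is given with its value in every sample (lowest, median and highest over 12 plates), the others by counts and ranges, and from each list at most 4 genes with the lowest adjusted p. Cell-level descriptions used Python 3.11.15 and limits chosen after the values were seen. No doublet caller was run, since wells were sorted singly. Parental alleles and small RNAs were not analysed here.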

Additional observations from a re-analysis of the deposited data

Results flagged for a closer look

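The 14 wells with fewer than 200 detected genes entered no comparison, and they held 3076 UMIs in all. Members were present in them: *H19* with 13 UMIs, *Igf2* with 10, *Dlk1* with 9 and *Peg3* with 4. These results were taken up because they lie in wells outside the comparisons and exceed the 3 counts that a count of 0 allows.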

How the results depend on the processing

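The 54 calls of members gave 856 values under the alternatives: 748 kept their direction and their side of the threshold, 108 kept their direction but were no longer called, and none reversed. The number of members called from T3 to T6 was 3, and 7 with DESeq2, 7 with no filter on low counts, 1 on library totals and 9 with the kind of plate as a covariate. From T6 to T9 it was 1, and 5 with DESeq2, 9 with no filter, 5 with the covariate, 3 within the plates with more reads outside features, and 0 on library totals, with the replicate block and with only the 6 plates compared. For *Scx*-positive cells it was 1, and 2 on library totals, 2 with no filter and 3 with at least 2 UMIs of *Scx*. Leaving out each sample gave 12 to 15 members from T0 to T3, 0 to 3 from T3 to T6, 0 to 3 from T6 to T9, 16 to 19 from T0 to T9, 2 to 5 in tendon, 8 to 11 in dividing cells and 0 to 2 in *Scx*-positive cells. With 1 sample left in a tendon group, that sample is assumed to vary like the other genotype. Within the plates with more reads outside features, T3 and T9 likewise keep only 1 plate each.

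Over all genes, 566 were called from T3 to T6, against 901 with DESeq2, 299 on library totals, 1010 with no filter, 1485 with the covariate and 263 with 6 plates, and 291 to 891 on leaving out a plate. From T6 to T9 the count was 217, against 579, 90, 682, 812 and 45 in the same order, 113 with the replicate block, 144 thinned and 35 to 852 on leaving out a plate. In tendon it was 560, against 1415 with no filter and 1108 with the replicate block. In dividing cells it was 1796, against 727 thinned. In *Scx*-positive cells it was 37, against 23 with DESeq2, 116 with no filter, 78 with at least 2 UMIs, 22 thinned and 2 to 51 on leaving out a plate. From T0 to T9, 3155 of 6050 calls were higher, and 1757 of 6226 on library totals. The causes of these differences were not tested.

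Replicate numbers are shared between groups but not stated to pair samples. Over 18 pairs of plates with 1 number the correlation of deviations ran from −0.56 to 0.50, 5 were over 0.1, and 14 of 36 matches were best with the own number. For the tendons r was 0.0845. With the number as a replicate block, 15, 3, 0, 17 and 4 members were called in the 4 time comparisons and in tendon. Members under about 10 CPM rest on few UMIs per plate, which limits *Rtl1*, *Ascl2*, *Mirg*, *Magel2* and *Mkrn3*, and differences of theirs that were not called may not have been detectable at this depth. With 2 tendons a genotype, only large differences could pass.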
